A study of Schizosaccharomyces pombe with 2 samples.

Results

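The respiratory complex III subunits were described intron by intron in fission yeast (Schizosaccharomyces pombe) prp2-1 cells in meiosis I at 25 or 34 °C. The genes were fixed by identifier as qcr2 (SPCC613.10), qcr6 (SPBC16C6.08c), qcr7 (SPCC737.02c), qcr8 (SPAC1782.07), rip1 (SPBC16H5.06) and cyt1 (SPBC29A3.18), and the rule that takes their introns uses no measured value. Of these 6 genes, 3 have introns in the deposited table, which gives 8 introns of 5374: 4 of qcr6, 3 of qcr8 and 1 of cyt1. The NCBI annotation of the ASM294v3 assembly gives qcr2, qcr7 and rip1 a single exon each, and the table holds 0 introns for them. Both groups are the same strain, labelled pat1_as2 prp2-1, grown in minimal medium, arrested in G1 without nitrogen and brought into synchronous meiosis by a chemical. When meiosis I began the cells were divided: the 25C group stayed at 25 °C, the permissive temperature, and the 34C group went to 34 °C, the restrictive temperature, with samples taken after 1 h. PolyA RNA was sequenced in 1 library per temperature, so differences have no replicate check and the tests compare 2 libraries rather than 2 temperatures. Both libraries carry prp2-1, so heat and loss of Prp2 cannot be told apart.

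Complex III, the cytochrome bc1 complex of the inner mitochondrial membrane, passes electrons from ubiquinol to cytochrome c and moves protons across the membrane. Its catalytic centre is formed by cytochrome b, made in mitochondria, by cytochrome c1 (the product of cyt1) and by the Rieske iron-sulfur protein (rip1), and small subunits such as those of qcr6 to qcr10 surround it. Prp2 is the large subunit of U2AF, the factor that marks the end of an intron by binding its pyrimidine-rich tract. The comparison asks how far the splicing of each intron differed between the libraries. Because heat and loss of Prp2 cannot be told apart here, a difference does not measure dependence on Prp2.

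The table counts spliced and unspliced reads for each intron, and the unspliced share is unspliced reads as a percentage of both. The 25 °C library held 636989 intron reads and the 34 °C library 493659, of which 6.56% and 39.9% were unspliced. An intron was called measured when it had at least 20 reads in each library, which held for 2508 introns of 1441 genes and for 7 of the 8 complex III introns. Their median unspliced share was 5.60% in the 25 °C library and 41.4% in the 34 °C library. Intervals of shares are exact Clopper-Pearson 95% intervals, those of changes are Newcombe 95% intervals, and all cover counting error only. PCR copies of a molecule are not independent reads, so the intervals may be too narrow.

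The introns on which the comparisons turn are shown first, because those of qcr6 and qcr8 share parts of their splice sites and differ in their response. Sequences are from the ASM294v3 assembly, 5′ to 3′ on the transcribed strand, with positions counted on the chromosome. Capitals mark the first 6 bases (the 5' splice site), the last AG, and the branch site match nearest the 3' end to CTAAC or CTAAT or CTGAC or CTGAT in the last 60 bases. Only the transcribed strand was searched, and where a window held several matches the last was taken.
qcr6 intron 1, chrII:4344736-4344782, minus strand: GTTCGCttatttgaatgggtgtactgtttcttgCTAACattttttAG
qcr6 intron 2, chrII:4344972-4345027, minus strand: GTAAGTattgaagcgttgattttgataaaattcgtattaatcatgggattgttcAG
qcr6 intron 3, chrII:4345100-4345225, minus strand: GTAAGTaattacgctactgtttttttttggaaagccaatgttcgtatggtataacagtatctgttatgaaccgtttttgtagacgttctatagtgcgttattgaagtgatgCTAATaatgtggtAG
qcr8 intron 1, chrI:4767142-4767330, plus strand: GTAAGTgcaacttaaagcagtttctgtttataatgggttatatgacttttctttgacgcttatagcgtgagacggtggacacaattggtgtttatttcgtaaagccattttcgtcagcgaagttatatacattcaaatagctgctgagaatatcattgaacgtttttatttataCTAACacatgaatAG
qcr8 intron 2, chrI:4767349-4767393, plus strand: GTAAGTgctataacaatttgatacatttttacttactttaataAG
qcr8 intron 3, chrI:4767608-4767710, plus strand: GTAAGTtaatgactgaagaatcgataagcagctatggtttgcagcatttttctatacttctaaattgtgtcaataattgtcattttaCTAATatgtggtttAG

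These 6 introns lie in coding sequence. Intron 4 of qcr6, at chrII:4345445-4345499, lies in the 5' untranslated region, is 55 nt long and begins with GTAAGG. The intron of cyt1, at chrII:2073383-2073466 on the plus strand, is coding, 84 nt long and begins with GTAAGT. Numbers are those of the table, taken to count from the left on either strand, so intron 4 is the first intron of the qcr6 transcript and intron 1 the last. That reading of the numbers rests on the whole table. Within plus-strand genes the rank correlation across 790 introns between a 5' splice site score and the change was -0.18 with numbers from the left and -0.0078 with numbers from the right, and within minus-strand genes it was -0.22 and 0.041 across 820 introns. For qcr8 and cyt1 the left end is also the start of the transcript. For qcr6 the other direction would exchange introns 1 and 4 and introns 2 and 3.

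**Figure D1:**
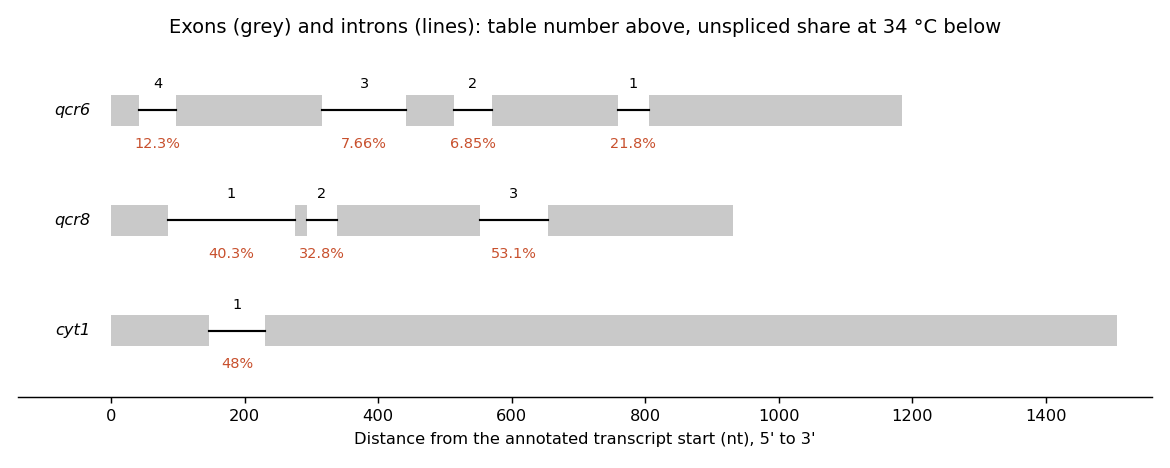
Maps of the 3 complex III genes with introns, drawn to scale from the annotated transcript start, with distance in nt on the x axis. Exons are grey blocks and introns are lines, with the table's intron number above and the unspliced share at 34 °C in percent below; the 2 inner introns of qcr6 have the lowest shares, 6.85% and 7.66%.

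In qcr6, which encodes the acidic hinge subunit next to cytochrome c1 in budding yeast, the introns did not respond alike. The outer introns rose at 34 °C and the inner introns did not pass the test. Intron 1 had 794 spliced and 19 unspliced reads at 25 °C and 1680 spliced and 468 unspliced reads at 34 °C. Its share was 2.34% (1.41 to 3.63) and then 21.8% (20.1 to 23.6), a rise of 19.5 points (17.3 to 21.4, adjusted p = 8.13e-47, Fisher's exact test). It had the lowest share of the 4 introns at 25 °C and the highest at 34 °C. Intron 4, the untranslated one, had 817 spliced and 34 unspliced reads at 25 °C and 2483 and 349 at 34 °C. Its share rose by 8.33 points (6.40 to 10.02), from 3.995% (2.78 to 5.54) to 12.3% (11.1 to 13.6, adjusted p = 1.37e-13, Fisher's exact test).

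The inner introns of qcr6 lie on either side of a 72-nt exon. Intron 2 had 238 spliced and 12 unspliced reads at 25 °C and 802 and 59 at 34 °C, which are shares of 4.80% (2.50 to 8.23) and 6.85% (5.26 to 8.75). The difference was 2.05 points with an interval of -1.67 to 4.83 (adjusted p = 0.333, Fisher's exact test). Intron 3 had 363 spliced and 28 unspliced reads at 25 °C and 1121 and 93 at 34 °C, which are shares of 7.16% (4.81 to 10.2) and 7.66% (6.23 to 9.30). The difference was 0.4995 points with an interval of -2.79 to 3.21 (adjusted p = 0.851, Fisher's exact test). The upper bounds of both intervals lie far below the median change of all measured introns, 32.3 points. Of the 2508 measured introns, 2.99% had a change no higher than that of intron 3, and 5.22% one no higher than that of intron 2. These percentages include introns whose share fell.

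In qcr8, which encodes a small subunit that contacts cytochrome b in budding yeast, the share rose in all 3 introns and to higher levels than in qcr6. Intron 1 had 272 spliced and 12 unspliced reads at 25 °C and 233 and 157 at 34 °C. Its share rose from 4.23% (2.20 to 7.26) to 40.3% (35.3 to 45.3), by 36.0 points (30.4 to 41.3, adjusted p = 1.57e-29, Fisher's exact test). Intron 2 had 214 spliced and 5 unspliced reads at 25 °C and 209 and 102 at 34 °C. The share of this intron rose by 30.5 points (24.7 to 36.1), from 2.28% (0.745 to 5.25) to 32.8% (27.6 to 38.3, adjusted p = 1.70e-20, Fisher's exact test).

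Intron 3 of qcr8 was the shallowest of the 7 measured introns of qcr6 and qcr8, with 58 spliced and 3 unspliced reads at 25 °C and 53 and 60 at 34 °C. Its share rose from 4.92% (1.03 to 13.7) to 53.1% (43.5 to 62.5), by 48.2 points (35.6 to 57.7, adjusted p = 6.56e-11, Fisher's exact test). It was the only measured complex III intron of these genes with more unspliced than spliced reads at 34 °C. At 25 °C the qcr8 introns had 2.28% to 4.92% and the qcr6 introns 2.34% to 7.16%. At 34 °C every qcr8 interval lay above every qcr6 interval. The difference between the genes was not tested.

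The intron of cyt1, which encodes cytochrome c1, had 17 spliced and 0 unspliced reads at 25 °C and 13 spliced and 12 unspliced reads at 34 °C. With 17 reads at 25 °C it was below the minimum and has no adjusted p. A count of 0 in 17 reads has an exact interval of 0% to 19.5%, a limit of 3 counts would be 17.6%, and the share at 34 °C was 48% (27.8 to 68.7). The difference of 48 points has an interval of 22.3 to 66.5, which lies above 0 and is wide.

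**Figure D2:**
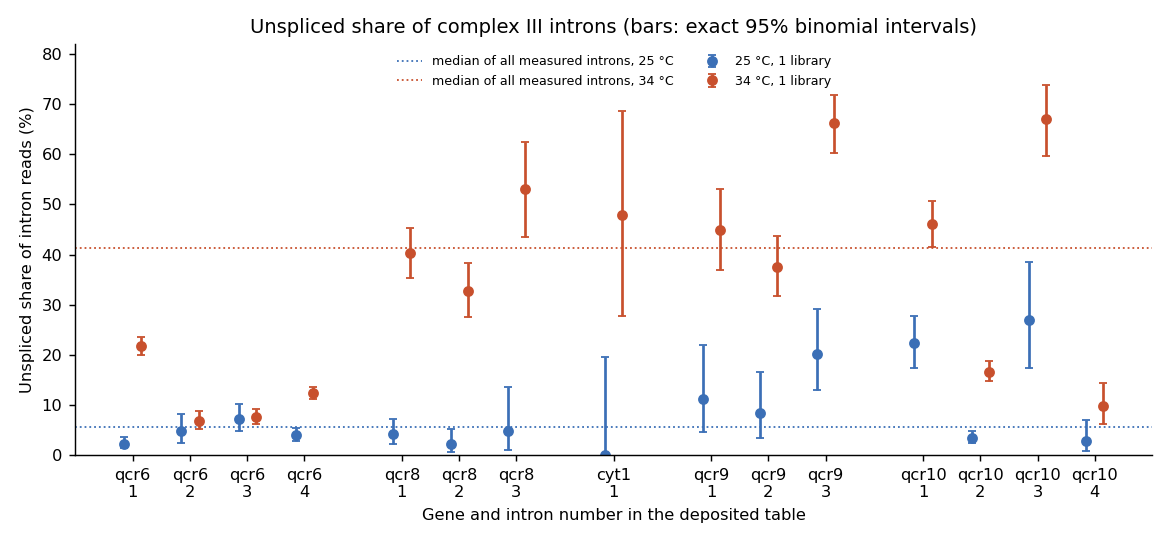
Unspliced share in percent (y axis) of each intron of qcr6, qcr8 and cyt1, and of qcr9 and qcr10 for comparison, at 25 °C (blue) and 34 °C (red), 1 library each. Points are shares, bars exact 95% binomial intervals and dotted lines the medians of all measured introns, 5.60% and 41.4%; the blue and red intervals overlap in introns 2 and 3 of qcr6 and in intron 4 of qcr10.

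Counted together, 5 of the 7 measured introns, all of qcr6 and qcr8, were called higher and 0 lower. Of all 2508 measured introns 82.6% were called higher and 0% lower. The median change of the 7 introns was 19.5 points, against 32.3 points over all measured introns. The medians by gene were 5.19 points for qcr6 and 36.0 points for qcr8. In share at 34 °C, the order from low to high was qcr6 introns 2, 3, 4 and 1 and then qcr8 introns 2, 1 and 3. In that order the intervals overlapped between qcr6 introns 2 and 3, between qcr8 introns 2 and 1, and between qcr8 introns 1 and 3.

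Whether introns of 1 gene differed in their change was tested on the log odds scale, by the z of the difference between 2 log odds ratios, and by Zelen's exact test of equal odds ratios, each with Benjamini-Hochberg adjustment over all 1825 pairs of the table. Reads of 1 molecule that cross 2 introns are not independent, and neither test allows for this. Of these pairs 11.4% differed by the z and 11.7% by the exact test. In qcr6 4 of 6 pairs differed, by either test. Its introns had 250 to 851 reads at 25 °C and 861 to 2832 at 34 °C. The medians over all measured introns were 71 and 78, so smaller differences could be called in qcr6 than in most genes. In points, the largest gap in change within qcr6 was 18.95. The median gap over the 627 genes with at least 2 measured introns was larger, 23.6 points. The log2 odds ratio of unspliced reads, 34 over 25 °C, was 3.51 ± 0.34 (SE) in intron 1, 0.50 ± 0.46 in intron 2, 0.09 ± 0.32 in intron 3 and 1.74 ± 0.26 in intron 4. The ratio of intron 1 was above those of introns 2 (adjusted p = 6.35e-06, or 9.92e-05 by the exact test), 3 (2.26e-11 and 5.30e-11) and 4 (9.09e-04 and 8.57e-04). The ratio of intron 4 was above that of intron 3 (adjusted p = 0.00153, or 0.00281 by the exact test). Introns 2 and 4 differed by 1.24 (interval 0.20 to 2.28), which missed the threshold after adjustment (adjusted p = 0.116, or 0.202 by the exact test). Introns 2 and 3 differed by -0.41 (interval -1.51 to 0.69, adjusted p = 0.722, or 0.897 by the exact test).

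In qcr8 0 of 3 pairs differed by either test, and 0 also at an unadjusted p under 0.05. The log2 odds ratios were 3.88 ± 0.44 in intron 1, 4.25 ± 0.65 in intron 2 and 4.24 ± 0.84 in intron 3. The intervals of the differences were wide, -1.16 to 1.91 for introns 1 and 2, -1.50 to 2.22 for introns 1 and 3 and -2.09 to 2.06 for introns 2 and 3. Taken at 34 °C alone, by Fisher's exact test adjusted over the same pairs, intron 3 of qcr8 was more unspliced than intron 1 (adjusted p = 0.0332) and intron 2 (5.18e-04), where 55.5% of all pairs differed. At 25 °C alone 24.2% of all pairs differed, and of the qcr6 and qcr8 pairs 1 did: intron 3 of qcr6 was more unspliced than intron 1 (adjusted p = 7.95e-04, Fisher's exact test). In this pair the order was therefore opposite at the 2 temperatures.

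**Figure D3:**
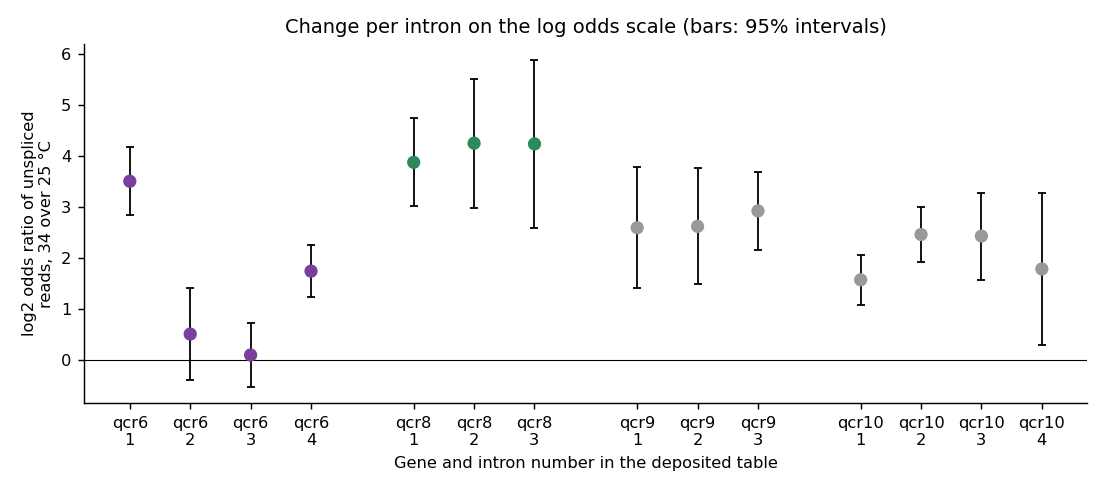
The log2 odds ratio of unspliced reads at 34 over 25 °C (y axis) for each measured intron of qcr6 (purple), qcr8 (green), qcr9 and qcr10 (grey), with 0.5 added to each count. Bars are 95% intervals for counting error; introns 2 and 3 of qcr6 have intervals that include 0, and the 3 introns of qcr8 lie between 3.88 and 4.25.

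The 5' splice sites differed among the introns of qcr6 and had the same 6 bases in those of qcr8. Introns 2 and 3 of qcr6, all introns of qcr8 and the intron of cyt1 begin with GTAAGT, as do 27.5% of 5020 introns with a position. Over the 439 measured GTAAGT introns whose place does not depend on the direction of numbering, the median change was 22.1 points. Introns 2 and 3 of qcr6 lay below this median and the 3 introns of qcr8 above it, with the same 6 bases. Intron 1 of qcr6 begins with GTTCGC, as printed above, and no other of the 5020 introns does. Its 5' splice site score, a sum over bases 3 to 6 that is higher for commoner bases, was -3.24, against 6.11 for GTAAGT and 2.91 for the GTAAGG of intron 4. In 1.35% of introns the score was as low or lower, and the 30 measured ones had a median change of 43.6 points. Unlike the 439 GTAAGT introns, these 30 include intron 1 of qcr6 and were not limited to introns placed alike in either direction. The direction of numbering was itself read from this score and the change, so their median is no separate evidence on the score. If qcr6 were numbered from the right, introns 2 and 3 would still both begin with GTAAGT, and GTTCGC would belong to intron 4.

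Toward the 3' end the introns also varied. Any of the 4 branch words occurred in the last 60 bases of 75.6% of the 5020 introns. It occurred in introns 1, 3 and 4 of qcr6 and in introns 1 and 3 of qcr8, and not in intron 2 of either gene or in cyt1. From the fourth base of the word, the branch A, 10 to 12 bases followed to the end in the introns with a word. The exception was intron 4 of qcr6, with 17. The median over the 3796 introns of the 5020 that hold a word was 11. Of the 14 bases that end 3 bases before the exon, 10 were pyrimidines in intron 1 of qcr6, 7 in intron 2, 6 in intron 3 and 12 in intron 4. In qcr8 they were 6, 10 and 7 in introns 1 to 3, with a median of 8 over all introns. The inner introns of qcr6 thus had fewer pyrimidines there than its outer ones. In qcr8 the intron with 10, intron 2, had the smallest rise in points (30.5) but the largest log2 odds ratio (4.25). As given above, 0 of 3 qcr8 pairs differed in log odds ratio. A link between pyrimidines and the change was not tested.

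Retained in the message, each of the 7 coding introns would bring a stop codon in the reading frame. The first stop begins at base 12 of intron 1, base 9 of intron 2 and base 6 of intron 3 of qcr6. It begins at base 2 of introns 1 and 2 and at base 7 of intron 3 of qcr8, and at base 13 in cyt1. Such a stop is common, since 86.3% of 4870 coding introns with a position have one. In qcr8 intron 1 follows 10 complete codons and intron 3 follows 88, so the stop would fall near the start or near the end of the protein.

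Exon lengths differ between the genes. Introns 1 and 2 of qcr8 are parted by an exon of 18 nt, shown for its length beside the read counts of the junctions it parts (capitals mark the whole exon).
qcr8 exon 2, chrI:4767331-4767348, plus strand: AGGATGGTGGGGCCATCT
The junctions on either side of this exon had 272 and 214 spliced reads at 25 °C, more than the 58 of intron 3, which lies between exons of 214 and 276 nt. In qcr6 the junctions on either side of the 72-nt exon had the fewest spliced reads, 238 and 363, against 794 and 817 in the outer introns.

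The number of reads per intron, spliced and unspliced together, also differed between the libraries. It was set per 1000000 intron reads of its library (RPM) and has no test, since there is 1 library per temperature. The 4 qcr6 introns had 392.5 to 1336 RPM at 25 °C and 1744 to 5737 at 34 °C. The ratio of 34 to 25 °C was 3.41 (exact 95% interval 3.14 to 3.70) for intron 1, 4.44 (3.86 to 5.14) for intron 2, 4.01 (3.57 to 4.50) for intron 3 and 4.29 (3.98 to 4.64) for intron 4. All 4 ratios lay above 2, as did 27.4% of all measured introns. In this scale the median intron had a ratio of 1.38 (0.47 on the log2 scale), and relative to that median the qcr6 ratios were 2.47 to 3.21. Unscaled, 2.43% of measured introns had a read ratio as high as that of intron 2 or higher, and 5.94% one as high as that of intron 1.

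In qcr6 both kinds of read were more numerous at 34 °C. The spliced reads alone were 2.12, 3.37, 3.09 and 3.04 times as many, unscaled, in introns 1 to 4, where the median intron had 0.595 times as many. The 3 qcr8 introns had 95.8 to 445.8 RPM at 25 °C and 228.9 to 790 at 34 °C. Their ratios were 1.77 (1.52 to 2.07), 1.83 (1.54 to 2.19) and 2.39 (1.74 to 3.32) for introns 1 to 3, or 1.28 to 1.73 relative to the median intron. Spliced reads of qcr8 were 0.857, 0.977 and 0.914 times as many at 34 °C, unscaled, and lay above 1 when scaled by all intron reads, so their direction depends on the scale. The cyt1 intron had a ratio of 1.90 with an interval of 0.985 to 3.74.

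**Figure D4:**
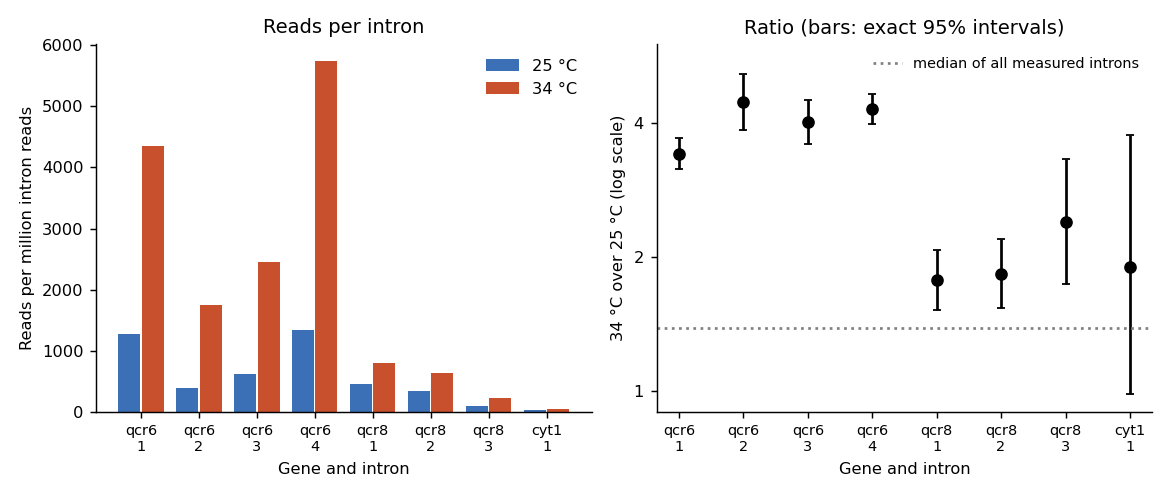
Left, reads per 1000000 intron reads (y axis) of each intron of qcr6, qcr8 and cyt1 at 25 °C (blue) and 34 °C (red), 1 library each. Right, the ratio of 34 to 25 °C on a log scale with exact 95% intervals for counting error and the median of all measured introns (dotted, 1.38); the 4 qcr6 introns have ratios of 3.41 to 4.44.

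Introns of 1 transcript did not have equal numbers of reads. Between the intron with the most and that with the fewest reads the factor was 3.40 at 25 °C and 3.29 at 34 °C in qcr6, and 4.66 and 3.45 in qcr8. Over the 627 genes with at least 2 measured introns the medians of this factor were 2.22 and 2.05. The ratios between the temperatures were closer to each other within a gene, with the highest 1.30 times the lowest in qcr6 and 1.35 times in qcr8, against a median of 1.53.

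An antisense transcript touches the qcr6 result. The annotated non-coding RNA SPNCRNA.6559, on the opposite strand, covers introns 1, 2 and 3 of qcr6 in full and 25 of the 55 bases of intron 4. SPNCRNA.5477, also on the opposite strand, covers the whole intron of cyt1. Whether the counting used strand is not given in the sources used here, so reads of these RNAs and unspliced reads of the genes cannot be told apart, and their part in the result was not tested. No annotated exon of another gene overlaps the qcr8 introns. Such an overlap was present in 58.6% of 2401 measured introns with a position.

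Further subunits of the complex with measured introns gave another comparison inside it. In qcr9 and qcr10, which encode small membrane-bound subunits, all 7 introns were called higher, where 82.6% of all measured introns were. The 3 introns of qcr9 had 8.43% to 20.2% unspliced at 25 °C and 37.5% to 66.2% at 34 °C, with rises of 29.1 to 46.0 points. The 4 introns of qcr10 spanned a wider range: intron 4 rose from 2.78% to 9.73% (adjusted p = 0.0148, Fisher's exact test) and intron 3 from 27.0% to 67.0%. Intron 2 of qcr10 rose from 3.47% of 979 reads to 16.7% of 1349 reads, and intron 1 from 22.3% to 46.1%. By the z and by Zelen's exact test 0 of 3 pairs of qcr9 and 0 of 6 pairs of qcr10 differed after adjustment, and at an unadjusted p under 0.05 0 and 1 did. At 34 °C alone all 6 qcr10 pairs, 2 of 3 qcr9 pairs and 5 of 6 qcr6 pairs differed by Fisher's exact test, where 55.5% of all pairs did. At 25 °C alone 4 of the qcr10 pairs, 0 of the qcr9 pairs and 1 of the qcr6 pairs differed by that test, where 24.2% of all pairs did. An exon of mcm3 on the opposite strand overlaps introns 2 and 3 of qcr9, and SPNCRNA.1558 all introns of qcr10.

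Other genes of the respiratory chain were taken from lists of symbols by role. The class of other complex III subunits and assembly had 10 of 11 introns higher and a median change of 29.1 points. These 11 include the 7 introns of qcr9 and qcr10 already given above. Of all measured introns 82.6% were higher, with a median change of 32.3 points. In this class the intron of mzm1, a chaperone of the Rieske protein in budding yeast, had 24.1% and 46.1% unspliced, which was not a call (adjusted p = 0.0565, Fisher's exact test). Electron carriers and feeders had 3 of 4 higher, with a median of 28.7 points. There the intron of sdh7, an assembly factor of succinate dehydrogenase, rose from 6.06% to 19.6%. That of sdh1, the flavoprotein subunit, had 8.33% at 25 °C and 6.67% at 34 °C. These sdh1 shares rest on few reads, 2 unspliced of 24 and then 4 of 60, and were not a call.

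Introns of complex IV, cytochrome c oxidase, had the lowest median of the 4 classes, 16.1 points, with 18 of 23 higher. The intron of cox9 rose from 5.78% to 9.77% (adjusted p = 3.56e-04, Fisher's exact test), and intron 4 of cox12 had 7.30% and 11.2% (adjusted p = 0.0922, Fisher's exact test). For ATP synthase genes 20 of 20 introns were higher, with a median of 28.5 points and changes from 2.35 to 70.3 points. The deepest of them, in atp15 for the epsilon subunit, rose from 5.60% to 17.9%. Over the whole list 51 of 58 introns of 33 genes were higher and 0 lower, with a median of 23.5 points, against 82.6% higher and 32.3 points over all measured introns. Beside the 0.4995 and 2.05 points of the inner qcr6 introns, the lowest changes elsewhere in the chain were -1.67 points among the carriers and feeders (sdh1), 2.09 points in complex IV and 2.35 points in ATP synthase.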

How the data were processed

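The authors deposited a table of raw counts of spliced and unspliced reads per intron in each library, per the file headers. A second deposited table repeats the deeper introns with the same values. The submitters' processing notes name TopHat and SAMtools, with no version. How reads were counted, on which build and annotation, whether by strand, and what made a read unspliced is not given in the sources used here. Each intron's counts were compared between temperatures with Fisher's exact test, two-sided (SciPy 1.17.1, Python 3.11.15), with Benjamini-Hochberg adjustment over the 2508 introns with at least 20 reads in each library and calls at an adjusted p under 0.05. Log odds ratios had 0.5 added to each count. Introns of 1 gene were compared by z and, added after seeing the data, by Zelen's exact test. The tests were also run on simulated counts with binomial error only and independent introns. Such counts hold no variation between libraries, so they cannot show how the tests behave with 1 library per temperature. Positions and sequences come from NCBI's ASM294v3 annotation, in genes whose intron number equals that of exactly 1 transcript; properties were taken where an intron ran from GT to AG over 30 nt or more. The rule uses identifiers alone, but the genes and lists were chosen with earlier results of these data known. The rule named every intron of the genes and of qcr9 and qcr10, and in each other role class the deepest called and uncalled intron. The list's symbol cor1 was left out, since it names a cornichon family protein in S. pombe.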

Additional observations from a re-analysis of the deposited data

How the results depend on the processing

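No paired analysis was possible because each temperature has 1 library and the labels give no replicate numbers. The 7 measured complex III introns kept their direction and their side of the threshold with the two-proportion z test, a minimum of 10 or 50 reads, Bonferroni adjustment and the log2 odds ratio. With a minimum of 10 reads the cyt1 intron was also called (adjusted p = 9.17e-04, Fisher's exact test). The count over all introns fell from 2071 to 1195 with a minimum of 50 reads and to 846 over introns free of overlapping exons. Fewer introns were tested in these settings, and the percentage called higher did not fall: it was 82.6%, 87.7% and 85.2% in this order. In the respiratory chain list the count fell from 51 to 24 over introns free of overlapping exons, where fewer introns were also tested. Zelen's exact test, chosen after seeing the data, gave 213 pairs in the table, 4 in qcr6 and 0 in qcr8. Tested at 34 °C alone, 1012 pairs of introns differed in the table in place of 208 and 2 in place of 0 in qcr8, and at 25 °C alone, chosen after seeing the data, 442 in the table and 1 in place of 4 in qcr6. At 34 °C alone the log2 odds ratio of qcr8 introns 2 and 3 differed by 1.21 in place of -0.01, since the 25 °C shares no longer enter. The median ratio of reads per qcr6 intron, 4.15, was 6.46 scaled by spliced reads, 3.002 scaled by the median ratio over introns and 6.15 for spliced reads scaled by spliced reads, the last chosen after seeing the data. For qcr8 it was 1.83, and 2.85 scaled by spliced reads, 1.42 unscaled, 1.33 scaled by the median ratio over introns and 1.18 for spliced reads only.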
